A study of Mus musculus with 11 samples.

Results

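The translation initiation factor genes described here are the protein-coding mouse genes whose symbol starts with Eif1 to Eif6, without the Eif2ak genes, which encode kinases that act on an initiation factor. Of 54838 genes counted in each library, 21998 are protein-coding, and 51 were members. The search for these symbols returned 66 genes, of which 4 were Eif2ak genes and 11 were not protein-coding. The members comprised 16 genes with symbols starting in Eif4, which hold the cap-binding machinery and are described apart, and 35 others. A gene was tested where it had more than 1 CPM (a gene's reads in every 1000000 counted reads of the library) in at least 4 libraries. This left 16073 genes, among them 50 members, since Eif4e1b, a cap-binding protein of oocytes, had only 0 to 5 reads per library.

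RNA was sequenced from embryonic stem cells (ESCs) of the mouse line E14, harvested 36 h after transfection with a scramble control siRNA (3 libraries), CMTR1 siRNA 1 (4 libraries) or CMTR1 siRNA 2 (4 libraries). CMTR1 is the enzyme that methylates the ribose of the first transcribed nucleotide, next to the 7-methylguanosine cap, and the comparisons ask how transcript levels differ when cells receive an siRNA against it. Cells of all 3 groups grew on gelatin with LIF and serum replacement, and all libraries were directional and depleted of ribosomal RNA. Both CMTR1 siRNA groups were compared with the same 3 control libraries, so their values are given side by side and are not independent of each other.

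The libraries held 6738478 to 8382318 counted reads. The RNA of Cmtr1 itself (chr17:29660595-29705979, plus strand, GRCm38) had 21.3, 21.7 and 17.9 CPM in control, 21.1, 21.3, 16.2 and 18.04 CPM with siRNA 1, and 15.6, 16.8, 16.4 and 19.5 CPM with siRNA 2. These ranges overlapped, and the log2 fold change was −0.088 (95% interval −0.30 to 0.12) for siRNA 1 and −0.25 (−0.46 to −0.038, adjusted p = 0.144) for siRNA 2. A share of 36.3% of the exon bases of Cmtr1 also lies in the overlapping genes Gm28043 and Gm28052. The counts therefore do not show a knockdown at the RNA level that passed the test, and siRNA 1 and siRNA 2 name the labels of the libraries throughout. All 8 ESC markers were expressed, with Pou5f1 between 419 and 507 CPM, Sox2 between 179.8 and 209 CPM and Klf4 between 35.8 and 62.8 CPM. Markers of other cell types ranged from the haemoglobin gene Hba-a1, at most at 0.27 CPM, to the neural gene Tubb3, at 42.6 to 54.2 CPM. The neural genes Sox1 and Pax6 were at 25.6 to 44.4 CPM and 7.41 to 16.3 CPM. The ESC markers summed to 1680 to 1760 CPM in control, 1370 to 1580 CPM with siRNA 1 and 1500 to 1580 CPM with siRNA 2, and 6 and 4 of the 8 passed the test as lower. Their log2 fold changes ran from −0.565 to −0.041 with siRNA 1 and from −0.611 to −0.013 with siRNA 2. Over all genes tested, 4.67% passed with siRNA 1 and 9.72% with siRNA 2, 1.97% and 3.55% as lower. Of 11 markers of other cell types, 9 were tested, their sums were 126 to 130 CPM, 128 to 147 CPM and 121 to 144 CPM, and 1 passed the test against control, Col1a1, with siRNA 2. The part of these differences in the results below was not tested. The study's methods speak of biological replicates, but the labels do not say which libraries came from separate cultures, so the p-values measure the spread between these libraries, part of which may be technical. In bulk RNA fewer cells with a transcript cannot be told apart from less of it per cell.

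Translation of most mRNAs begins at the cap. eIF4E holds the cap, eIF4G joins eIF4E to the ribosome through eIF3, and the helicase eIF4A, helped by eIF4B or eIF4H, opens the leader of the mRNA. The small ribosomal subunit arrives with eIF3, eIF1, eIF1A, eIF5 and the complex of eIF2, GTP and initiator tRNA, and scans to the start codon, after which eIF5 triggers GTP hydrolysis and eIF5B lets the large subunit join. eIF2B reloads eIF2 with GTP, and 4E-binding proteins keep eIF4E from eIF4G until mTORC1 phosphorylates them.

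Changes in the initiation factor genes were few and small. Eif4a2, which encodes an eIF4A helicase, and Eif4b, which encodes the cofactor eIF4B, were lower with both siRNAs, by 20.6% and 14.4% with siRNA 1 and by 21.2% and 12.3% with siRNA 2. Eif2s2, the beta subunit of eIF2, was lower by 18.5% with siRNA 2, and Eif1ax, an eIF1A gene, and Eif4a1, the paralogue of Eif4a2, were higher by 14.8% and 11.7% with siRNA 2. Eif3j1 and Eif3j2, genes of an eIF3 subunit, were higher by 16.9% and 22.8% with siRNA 2. Eif4g3, an eIF4G gene, was higher by 16.7% with siRNA 1. These higher calls depended on the method, and DESeq2 called 0 members higher with either siRNA. Of all 16073 genes tested, it called 170 higher with siRNA 1 and 390 with siRNA 2, fewer than the 435 and 991 of edgeR. Every tested member lay within −0.42 and 0.30 on the log2 scale in both comparisons with control.

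By edgeR's quasi-likelihood test with a Benjamini-Hochberg adjusted p of at most 0.05 over all genes, 3 of the 50 members tested passed with siRNA 1, which is close to the background of 4.67% of all genes. They were 2 lower (background 1.97%) and 1 higher (background 2.71%). With siRNA 2, 7 members passed against a background of 9.72%, of which 3 were lower (background 3.55%) and 4 higher (background 6.17%). Against the mean of both siRNAs, which weights the siRNAs equally, 5 members passed (background 6.91%), 3 lower (background 2.72%) and 2 higher (background 4.19%). The median log2 fold change of the members was −0.042 with siRNA 1, 0.010 with siRNA 2 and −0.010 for their mean, beside 0.024, 0.029 and 0.025 for all genes tested. With TMM scaling factors in place of total counts, the members' medians were −0.062, −0.015 and −0.033, so the sign for siRNA 2 depends on the scaling. The same scaling moved the share of lower genes among all called genes from 42.1% to 53.6% for siRNA 1, from 36.6% to 50.2% for siRNA 2 and from 39.4% to 53.0% for the mean. Among the members called, TMM factors gave 3 lower and 0 higher for siRNA 1, 4 lower and 2 higher for siRNA 2, and 3 lower and 1 higher for the mean. With DESeq2 and its size factors the shares of lower genes were 62.2%, 55.4% and 60.3%, and 2, 4 and 2 members were called, all lower. Over all genes, DESeq2 called 450, 874 and 660 and TMM factors 746, 1462 and 1082, against 751, 1562 and 1110 in the main fit. The members called with DESeq2 are to be read against its smaller totals. The members' counts lay near what the backgrounds give. They changed when single libraries were left out, and calls over all genes changed too. For siRNA 2 the full fit called 571 genes lower and 991 higher. The member count was 3 without control replicate 3 (genes called 292 lower and 515 higher). It was 4 without siRNA 2 replicate 1 (358 and 649) or 4 (502 and 848). It rose to 8 without siRNA 1 replicate 1 (596 and 1038) and 9 without siRNA 2 replicate 3 (643 and 1015). For the mean, the full fit called 437 genes lower and 673 higher. The member count was 3 without control replicate 1 (359 and 467) or 3 (206 and 306), and 2 without control replicate 2 (233 and 266).

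**Figure D1:**
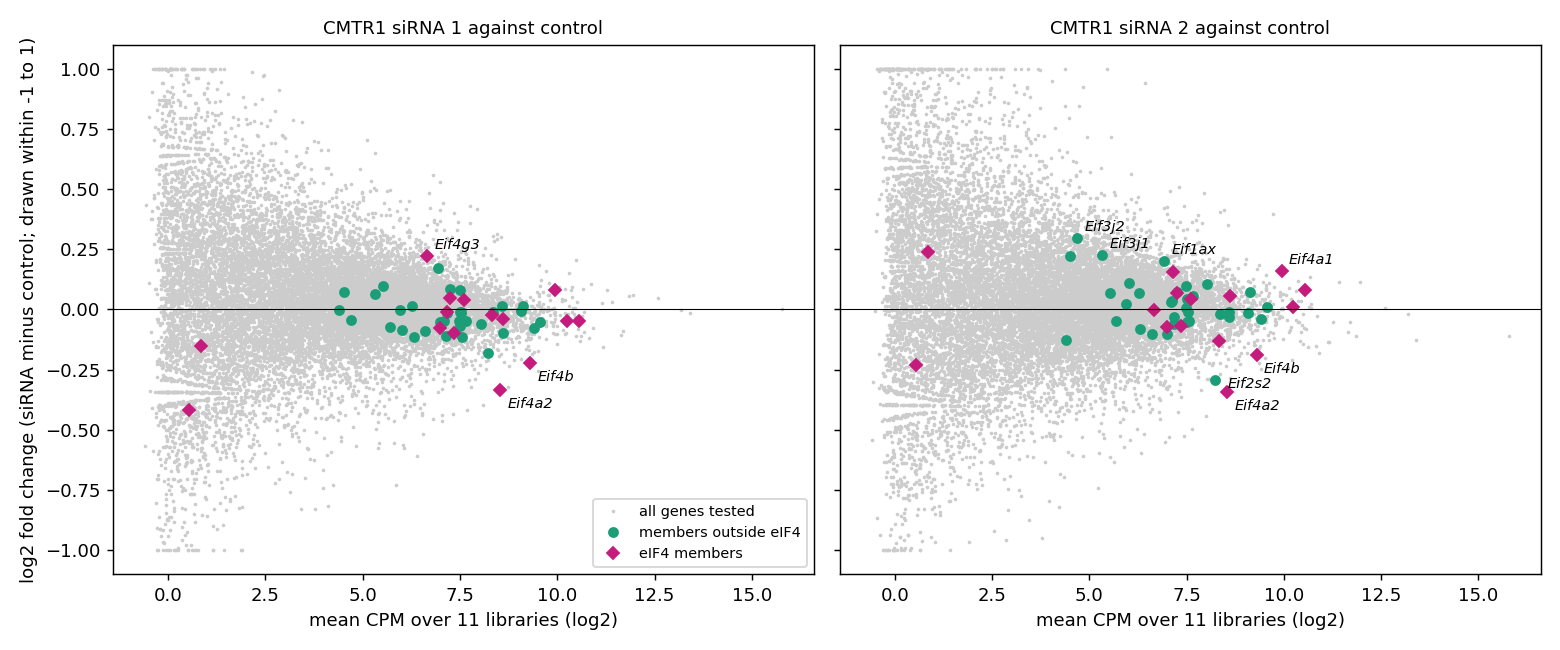
Log2 fold change (vertical axis) against log2 of the mean CPM over the 11 libraries (horizontal axis) for all 16073 genes tested (grey) with the 15 eIF4 members (diamonds) and the 35 other members (circles), for siRNA 1 (left) and siRNA 2 (right) against control. Members that passed the test are named, and fold changes beyond 1 in either direction are drawn at 1. Most members sit among the well-expressed genes and near 0, with Eif4a2 the lowest of the named genes in both panels.

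The libraries of siRNA 1 did not overlap those of control for 5 members (3 lower, 2 higher; background 15.5%), and those of siRNA 2 for 12 members (5 lower, 7 higher; background 19.4%). Over all 8 siRNA libraries, 3 members were separate from control (background 6.23%), namely Eif4a2 and Eif4b, which were lower, and Eif1ax, which was higher. The median standard error of a member's log2 fold change was 0.052 for either siRNA, beside 0.109 and 0.108 over all genes tested. The 95% interval lay within 0.32 of 0 on the log2 scale, in both directions, for 46 of the 50 members with siRNA 1 and for 43 with siRNA 2. For siRNA 1, the 4 members outside that limit were Eif4a2, Eif4g3, Eif4e3 and Eif4ebp3. Summed over the members, 13662 ± 278 CPM (SD, n = 3) fell on initiation factors in control, 13245 ± 412 CPM (n = 4) with siRNA 1 and 13676 ± 368 CPM (n = 4) with siRNA 2. The sum was 1.27% to 1.40% of all counted reads in every library, and the groups overlapped.

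The eIF4 genes covered a wide range of levels in control cells. Per kilobase of exon, Eif4a1 was highest at 214 ± 5.15 CPM (SD, n = 3), followed by Eif4g1 at 167 ± 3.56, Eif4b at 156 ± 3.84 and Eif4g2 at 146 ± 6.45. Eif4a3 had 90.0 ± 1.92 CPM per kilobase, Eif4a2 82.0 ± 5.67, Eif4ebp1 78.0 ± 2.69, Eif4h 69.7 ± 1.54 and Eif4ebp2 57.7 ± 2.07. The cap-binding protein gene Eif4e had 22.8 ± 1.09 CPM per kilobase, below Eif4g1, Eif4ebp1 and Eif4ebp2, next to Eif4enif1 at 23.2 ± 0.900 and Eif4e2 at 17.6 ± 1.36. Eif4g3 had 8.59 ± 0.570, Eif4ebp3 2.30 ± 0.126, Eif4e3 0.701 ± 0.364 and Eif4e1b 0.151 ± 0.139 CPM per kilobase. Among neighbours in this order, the control libraries overlapped for Eif4a2 with Eif4ebp1 and for Eif4enif1 with Eif4e, and were separate for all others. The order depends on the length used: divided by the longest transcript instead, Eif4a2 had 162 ± 11.2 CPM per kilobase and stood above Eif4h and Eif4a3, and Eif4e2, at 38.0 ± 2.94, stood above Eif4e, at 27.5 ± 1.32, without overlap. Eif4g2 also moved above Eif4b on that scale, at 186 ± 8.20 against 181 ± 4.45, with overlapping libraries.

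**Figure D2:**
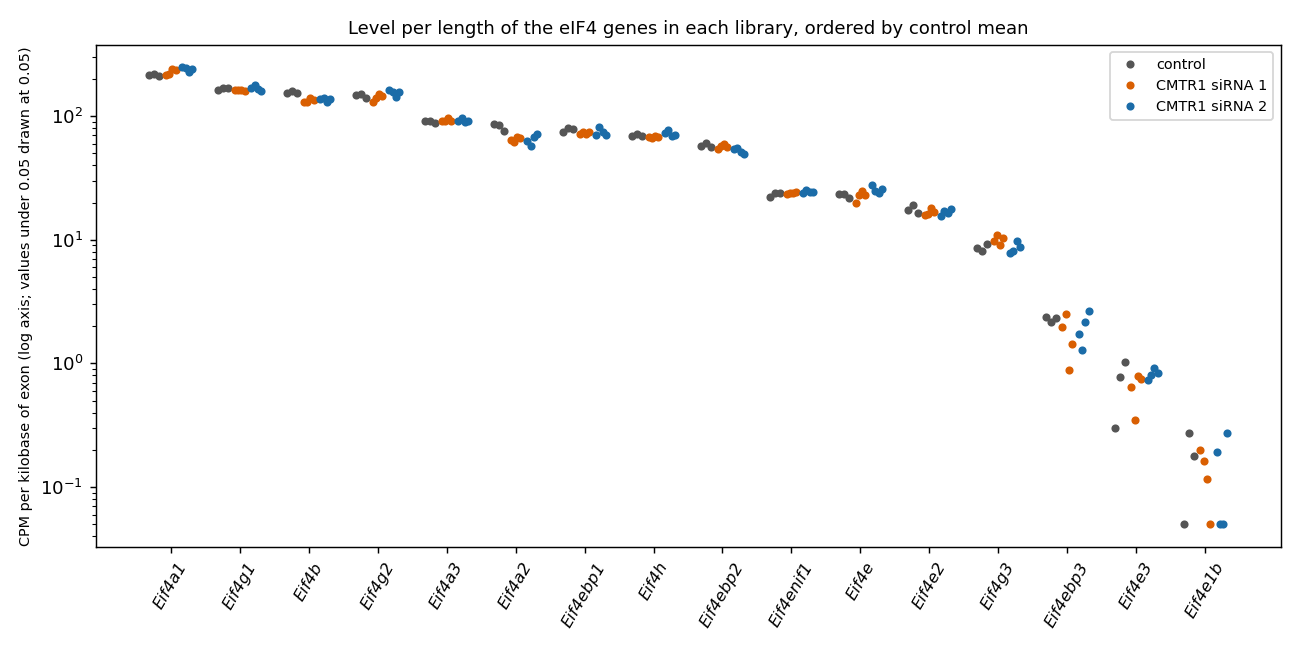
CPM per kilobase of exon (log axis) of the 16 eIF4 genes in each of the 11 libraries, ordered by the control mean; each point is a library, coloured by siRNA, and values under 0.05 are drawn at 0.05. Levels run from 214 CPM per kilobase for Eif4a1 to 0.151 for Eif4e1b in control, and Eif4a2 and Eif4b show siRNA libraries below the control libraries.

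Of the 15 eIF4 genes tested, 3 passed with siRNA 1, 3 with siRNA 2 and 3 for the mean of both, beside 4.67%, 9.72% and 6.91% of all genes, and their median log2 fold changes were −0.047, 0.009 and 0.007. Among the 35 other members the counts were 0, 4 and 2, to be read against the same shares, with medians of −0.016, 0.010 and −0.011. The 0 called with siRNA 1 by edgeR stood beside 4 genes with an unadjusted p under 0.05, and DESeq2 and edgeR's exact test also called 0. Other settings called Eif2s2 (TMM factors, 0.0479; no filter on low counts, 0.00731) or Eif1ax (a fit of the 2 groups only, 0.0445). With replicate numbers as a block, Eif2s2 was called too (0.00666). So was 1 of these genes without siRNA 1 replicate 1, 3 or 4 or siRNA 2 replicate 4, while the other leave-outs called eIF4 genes only.

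Eif4a2 (chr16:23107444-23114136, plus strand) encodes eIF4A2, a DEAD-box helicase and paralogue of eIF4A1. The control libraries held 459, 450.3 and 403 CPM of it, against 342, 332, 364 and 353 CPM with siRNA 1 and 334, 305, 358 and 381 CPM with siRNA 2. All 8 siRNA libraries lay below the lowest control library, and both siRNA groups reached about the same level. The log2 fold change was −0.33 ± 0.053 (SE; adjusted p = 5.09e-05) with siRNA 1, −0.34 ± 0.053 (1.64e-05) with siRNA 2 and −0.34 ± 0.047 (2.65e-06) for their mean. Only Eif4ebp3 with siRNA 1, at 5 to 16 reads per library, had a lower estimate among the members, and the Eif4a2 call was kept under every alternative and without any single library. Of the 75-nt words of its transcripts 8.3% also occur in other genes, mainly Gm2999, and 9.6% of its exon bases lie in other genes on the same strand.

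Eif4a1 (chr11:69666936-69672423, minus strand) encodes the more abundant eIF4A helicase. Its levels were 923, 951 and 907 CPM in control, 937, 944, 1032 and 1014 CPM with siRNA 1 and 1071, 1055, 982 and 1037 CPM with siRNA 2. All siRNA 2 libraries were above all control libraries, while those of siRNA 1 overlapped control. The log2 fold change was 0.16 ± 0.043 with siRNA 2 (adjusted p = 0.0116), 0.082 ± 0.043 with siRNA 1 (0.327) and 0.12 ± 0.038 for the mean (0.0431). The call for siRNA 2 was lost with DESeq2 (0.0672), without control replicate 3 (0.0835) and without siRNA 2 replicate 1 (0.053), and that for the mean was lost with TMM factors (0.136), with DESeq2 (0.214) and without any 1 of control replicates 1 to 3, siRNA 1 replicates 3 and 4, and siRNA 2 replicates 1 and 2 (0.0534 to 0.229). Of its 75-nt words 25.4% occur in other genes, mainly the pseudogene Eif4a-ps4, so part of its reads could have been assigned elsewhere.

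The paralogues thus moved in opposite directions in the siRNA 2 libraries. Per kilobase of exon, the ratio of Eif4a1 to Eif4a2 stood at 2.48, 2.60 and 2.77 in the control libraries. It was 3.38, 3.51, 3.49 and 3.54 for siRNA 1 and 3.95, 4.26, 3.37 and 3.35 for siRNA 2. No siRNA library had a ratio as low as any control library, with means of 2.62 ± 0.149 (SD, n = 3), 3.48 ± 0.0714 (n = 4) and 3.73 ± 0.448 (n = 4). Divided by the longest transcripts, the means were 1.82, 2.42 and 2.59. This ratio was chosen after its values were seen and is given without a test.

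Eif4b (chr15:102073773-102097173, plus strand) encodes eIF4B, the RNA-binding cofactor that raises the helicase activity of eIF4A. Control libraries held 682, 715 and 692 CPM, siRNA 1 libraries 578, 585, 625 and 597 CPM and siRNA 2 libraries 617, 623, 584 and 619.7 CPM. Each siRNA library lay below each control library. The log2 fold change was −0.22 ± 0.042 (adjusted p = 0.000444) with siRNA 1, −0.19 ± 0.042 (0.00195) with siRNA 2 and −0.21 ± 0.037 (0.000153) for the mean. The call held under every alternative and without any single library, the highest adjusted p being 0.0277. Only 0.3% of its 75-nt words occur in another gene. Eif4h, whose product stimulates eIF4A in the same way, was at 387 ± 8.58 CPM (SD, n = 3) in control, 376 ± 6.95 CPM (n = 4) with siRNA 1 and 402 ± 19.6 CPM (n = 4) with siRNA 2, with log2 fold changes of −0.041 and 0.055 (adjusted p = 0.704 and 0.48).

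**Figure D3:**
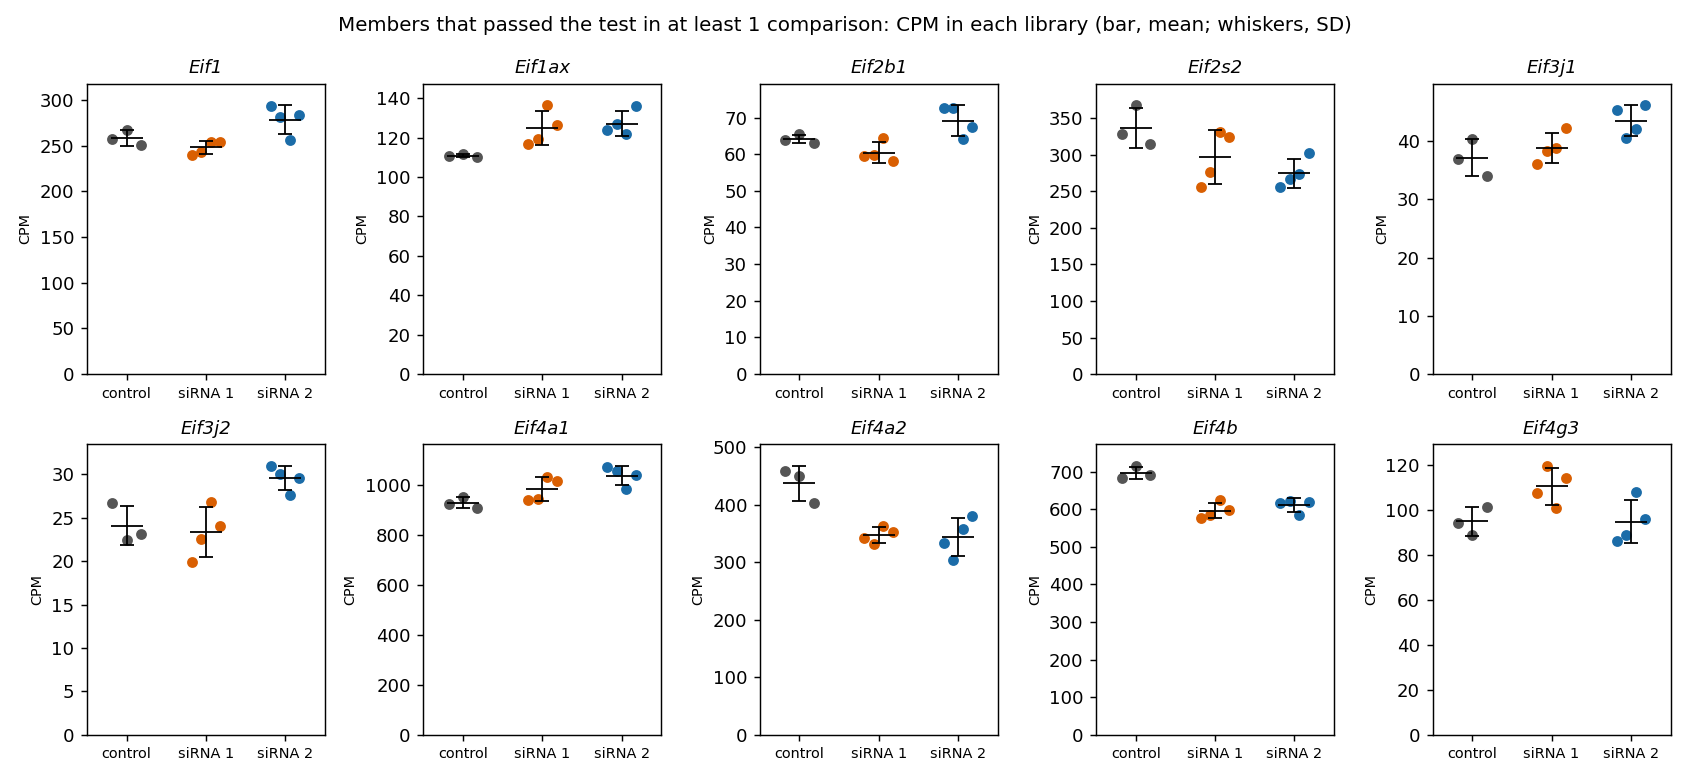
CPM (vertical axes, starting at 0) of the 10 members that passed the test in at least 1 comparison; each point is a library, the horizontal bar is the group mean and the whiskers are the SD (n = 3 for control, n = 4 for each siRNA). Eif4a2 and Eif4b are lower in all siRNA libraries, Eif1ax is higher in all of them, and Eif1, Eif2b1, Eif3j2 and Eif4g3 differ between siRNA 1 and siRNA 2.

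Of the eIF4G scaffold genes, 1 passed. Eif4g3 (chr4:137993022-138208508, plus strand), the less abundant scaffold paralogue, was at 94.5, 89.0 and 102 CPM in control, 108, 119.8, 101 and 114 CPM with siRNA 1 and 86.5, 89.1, 108 and 95.9 CPM with siRNA 2. Most siRNA 1 libraries were above control, with 1 of the 4 within the control range, and siRNA 2 libraries spanned the control range. Its log2 fold change was 0.22 ± 0.065 with siRNA 1 (adjusted p = 0.033) and −0.001 ± 0.065 with siRNA 2 (0.994), and siRNA 2 minus siRNA 1 was −0.22 ± 0.060 (0.0139). The call for siRNA 1 was lost with TMM factors (0.0543), with DESeq2 (0.144), and without control replicate 1 (0.096), control replicate 2 (0.246), siRNA 1 replicate 2 (0.174) or siRNA 1 replicate 4 (0.0901). The difference between the siRNAs was lost without siRNA 1 replicate 2 (0.0955), siRNA 2 replicate 1 (0.0821) or siRNA 2 replicate 2 (0.0611). Eif4g1, the main scaffold, was at 1220 ± 26.0 CPM in control, 1179 ± 15.1 CPM with siRNA 1 and 1228 ± 57.7 CPM with siRNA 2, and its 95% intervals ran from −0.13 to 0.030 and from −0.071 to 0.089. Eif4g2, whose product lacks the part that binds eIF4E, was at 1488 ± 65.6, 1440 ± 84.2 and 1573 ± 79.8 CPM, with log2 fold changes of −0.047 and 0.080 (adjusted p = 0.663 and 0.289). Its difference between the siRNAs, 0.127 ± 0.042, had an adjusted p of 0.0521. That difference passed with no filter on low counts (0.025) and without siRNA 1 or siRNA 2 replicate 3 (0.0194 and 0.00735).

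No gene of the eIF4E family passed edgeR's test against control, and DESeq2 called 0. An unadjusted p under 0.05 was reached by 0 with siRNA 1 and by 1 with siRNA 2. Eif4e, the cap-binding protein itself, was at 141, 140.5 and 129.6 CPM in control, 119, 138, 149.5 and 138 CPM with siRNA 1 and 165, 149, 144 and 154 CPM with siRNA 2. All siRNA 2 libraries were above control and the siRNA 1 libraries surrounded it. The log2 fold change was −0.010 ± 0.059 with siRNA 1 and 0.16 ± 0.058 with siRNA 2 (adjusted p = 0.96 and 0.0835). The siRNA 2 value passed without siRNA 1 replicate 1 (0.0474) and without siRNA 2 replicate 3 (0.0422). The difference between the siRNAs, 0.17 ± 0.054, had an adjusted p of 0.0507 and passed with edgeR's exact test (0.0432), with no filter on low counts (0.0296) and without siRNA 1 or siRNA 2 replicate 3 (0.0129 and 0.0239). Eif4e2, a cap-binding protein that represses translation, had log2 fold changes of −0.078 and −0.072 (adjusted p = 0.527 and 0.471) from 132 ± 10.2 CPM in control. Eif4e3, with 6 to 19 reads per library, was too shallow to place: its 95% intervals were −0.80 to 0.49 and −0.36 to 0.84.

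The genes of eIF4E-binding repressors did not pass edgeR's test either, with an unadjusted p under 0.05 for 0 with siRNA 1 and 1 with siRNA 2, and DESeq2 called 0 and 1. Eif4ebp1 was at 164, 175 and 174 CPM in control, 158, 164, 156 and 162 CPM with siRNA 1 and 154, 180.4, 162 and 155 CPM with siRNA 2. The siRNA 1 libraries lay below control and the siRNA 2 libraries did not, with log2 fold changes of −0.097 ± 0.052 and −0.070 ± 0.052 (adjusted p = 0.34 and 0.436). Eif4ebp2, the next 4E-binding protein gene in level per kilobase, was at 328, 347 and 325 CPM, 311, 330.3, 346 and 326 CPM and 316, 321, 296 and 286 CPM in the same order. The siRNA 2 libraries all lay below control, and its log2 fold change of −0.13 ± 0.047 had an adjusted p of 0.0677, which became 0.0321 with TMM factors, 0.0415 with DESeq2 and 0.0364 without siRNA 2 replicate 2. Eif4ebp3, with 5 to 16 reads per library and 67.3% of its exon bases in another gene on the same strand, had 95% intervals of −1.07 to 0.23 and −0.86 to 0.40. Eif4enif1, whose product carries eIF4E into the nucleus and to processing bodies, was at 148 ± 5.74, 153 ± 2.39 and 155 ± 3.64 CPM (adjusted p = 0.676 and 0.419). Eif4a3, a core of the exon junction complex and not a factor of initiation, was at 191 ± 4.08, 196 ± 5.44 and 197 ± 6.36 CPM (adjusted p = 0.748 and 0.626).

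Among the factors of start codon recognition, Eif1ax (chrX:159372178-159389928, plus strand), which encodes eIF1A, was at 111, 112 and 110.1 CPM in control, 117, 119, 136 and 127 CPM with siRNA 1 and 124, 127, 122 and 136 CPM with siRNA 2. The control libraries lay close together, and all 8 siRNA libraries were above them. The log2 fold change was 0.17 ± 0.056 with siRNA 1 (adjusted p = 0.062), 0.20 ± 0.055 with siRNA 2 (0.0152) and 0.19 ± 0.049 for the mean (0.014). The siRNA 1 value passed in a fit of the 2 groups only (0.0445), without siRNA 1 replicate 1 (0.0384) and without siRNA 2 replicate 4 (0.0498). The siRNA 2 call was lost with DESeq2 (0.0893), without control replicate 2 (0.0511), without control replicate 3 (0.0634) and without siRNA 2 replicate 4 (0.0637), and that for the mean with DESeq2 (0.0822) and without control replicate 1, 2 or 3 (0.0544, 0.0667 and 0.0788). Eif1a, the autosomal eIF1A gene, had log2 fold changes of −0.047 and 0.004 (adjusted p = 0.719 and 0.978) from 179 ± 6.67 CPM in control.

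Eif1, which guards the fidelity of start codon choice, was at 258, 268 and 250.2 CPM in control, 240.3, 243, 254 and 254 CPM with siRNA 1 and 293, 282, 256 and 283 CPM with siRNA 2. Neither siRNA passed against control (log2 fold change −0.060 and 0.11, adjusted p = 0.571 and 0.152), and the value for siRNA 2 passed without siRNA 2 replicate 3 (0.0345). All siRNA 2 libraries lay above all siRNA 1 libraries, and the difference between the siRNAs was 0.17 ± 0.044 (0.0121). Without siRNA 1 replicate 2 it had an adjusted p of 0.0563, and without siRNA 2 replicate 1 one of 0.0723. Its paralogue Eif1b was at 21.2, 20.7 and 21.5 CPM in control and 26.0, 25.3, 22.8 and 24.7 CPM with siRNA 2, where every library lay above control, but it did not pass (0.22 ± 0.091, adjusted p = 0.119).

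Eif2s2 (chr2:154871410-154892935, minus strand) encodes the beta subunit of eIF2, which binds eIF5 and eIF2B. Its levels were 328, 368 and 315 CPM in control, 255, 276, 331 and 324 CPM with siRNA 1 and 256, 267, 273 and 302 CPM with siRNA 2. All siRNA 2 libraries lay below control, while siRNA 1 fell into 2 libraries below control and 2 within its range. The log2 fold change was −0.18 ± 0.062 with siRNA 1 (adjusted p = 0.0797), −0.30 ± 0.062 with siRNA 2 (0.00109) and −0.24 ± 0.054 for the mean (0.00352). The siRNA 2 call held under every alternative and every leave-out (at most 0.0445), and that for the mean was lost with DESeq2 (0.0901) and without control replicate 2 (0.128). The siRNA 1 value passed with TMM factors (0.0479), with no filter on low counts (0.00731), without siRNA 1 replicate 3 (0.014) and without siRNA 1 replicate 4 (0.0341).

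The other subunits of eIF2 did not follow Eif2s2 past the threshold. Eif2s1, the alpha subunit that stress kinases phosphorylate, had log2 fold changes of −0.016 and 0.038 (adjusted p = 0.931 and 0.748) from 183 ± 7.92 CPM in control. The gamma subunit is encoded on both sex chromosomes. Eif2s3x had log2 fold changes of −0.089 and −0.10 (adjusted p = 0.509 and 0.33) from 103 ± 4.25 CPM, and Eif2s3y of 0.015 and 0.070 (adjusted p = 0.944 and 0.554) from 75.4 ± 4.50 CPM. Of the 75-nt words of Eif2s3x 34.2% occur in other genes, mainly Gm2223.

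None of the 5 genes of eIF2B, the exchange factor of eIF2, passed edgeR's test against control or had an unadjusted p under 0.05, and DESeq2 called 0, with log2 fold changes from −0.084 to 0.098 for siRNA 1 and from −0.050 to 0.11 for siRNA 2. Eif2b1, the alpha subunit of its regulatory core, was at 63.7, 65.4 and 63.1 CPM in control, 59.5, 59.8, 64.5 and 58.0 CPM with siRNA 1 and 72.6, 72.7, 64.0 and 67.3 CPM with siRNA 2. The siRNA 2 libraries were mostly high and the siRNA 1 libraries mostly low, with 1 siRNA 1 library above the lowest siRNA 2 library. The difference between the siRNAs was 0.19 ± 0.058 (adjusted p = 0.0304) and was lost with DESeq2 (0.095) and without any 1 of siRNA 1 replicates 1, 2 and 4 and siRNA 2 replicates 1 and 2 (0.0752 to 0.109). At the ends of the group for the mean of both siRNAs, Eif2b2 was at 44.0 ± 1.35, 47.2 ± 3.44 and 46.1 ± 2.97 CPM and Eif2b4 at 53.5 ± 2.86, 50.7 ± 2.41 and 51.5 ± 4.01 CPM, and neither passed (adjusted p = 0.497 and 0.623 for the mean).

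eIF3, the large scaffold that holds the small ribosomal subunit for eIF4G, has 14 member genes. Summed, they made up 0.379% of reads in control, 0.375% with siRNA 1 and 0.381% with siRNA 2. None passed with siRNA 1, where 1 had an unadjusted p under 0.05 (DESeq2 also called 0) and log2 fold changes ran from −0.12 to 0.086. With siRNA 2 only the pair for the loosely bound subunit j passed, and the other 12 genes lay between −0.051 and 0.099. For subunits that carry the core, the 95% intervals were narrow: for Eif3a −0.16 to 0.005 and −0.12 to 0.041, for Eif3b −0.070 to 0.096 and −0.011 to 0.16, and for Eif3c −0.092 to 0.078 and −0.098 to 0.072. Eif3f, the lowest of the group for the mean of both siRNAs, was at 197 ± 9.58 CPM in control, 182 ± 5.03 CPM with siRNA 1 and 190 ± 9.61 CPM with siRNA 2 (log2 fold change −0.12 and −0.046, adjusted p = 0.205 and 0.617).

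The 2 genes of subunit j share most of their sequence. Of the 75-nt words of Eif3j2, 87.4% occur elsewhere, mainly in Eif3j1, and of those of Eif3j1, 47.3% occur elsewhere, mainly in Eif3j2, so the split of reads between them is uncertain. Eif3j1 was at 37.0, 40.5 and 34.0 CPM in control, 36.1, 38.4, 38.8 and 42.2 CPM with siRNA 1 and 45.3, 40.6, 42.1 and 46.2 CPM with siRNA 2, and Eif3j2 at 26.7, 22.4 and 23.1 CPM, 19.9, 22.6, 26.8 and 24.1 CPM and 31.0, 30.1, 27.6 and 29.6 CPM. For both genes the siRNA 2 libraries lay above control and the siRNA 1 libraries overlapped it. With siRNA 2 the log2 fold change was 0.22 ± 0.075 for Eif3j1 (adjusted p = 0.048) and 0.30 ± 0.091 for Eif3j2 (0.0299), and siRNA 2 minus siRNA 1 was 0.16 ± 0.070 (0.163) and 0.34 ± 0.085 (0.00866). The Eif3j1 call was lost with TMM factors (0.0856), with DESeq2 (0.222), with no filter on low counts (0.0704) and in a fit of the 2 groups only (0.0551), and without any 1 of control replicates 1 and 3, siRNA 1 replicates 2 and 4, and siRNA 2 replicates 1 and 4 (0.0506 to 0.267). The Eif3j2 call against control was lost with TMM factors (0.0505), with DESeq2 (0.149) and without any 1 of control replicates 2 and 3 and siRNA 2 replicates 1, 2 and 4 (0.05 to 0.167), and that against siRNA 1 without siRNA 1 replicate 1 (0.059).

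The genes of the late steps did not pass in any comparison with edgeR or DESeq2, although Eif5 with siRNA 1 and Eif5b between the siRNAs had unadjusted p-values of 0.0354 and 0.0176. Eif5, which triggers GTP hydrolysis by eIF2, was at 399 ± 14.5, 372 ± 15.8 and 390.3 ± 18.4 CPM, with log2 fold changes of −0.099 and −0.032 (adjusted p = 0.249 and 0.733). Eif5b, the GTPase of subunit joining, was at 182 ± 7.94, 174 ± 5.83 and 188 ± 3.40 CPM (adjusted p = 0.519 and 0.646), and all its siRNA 2 libraries lay above all its siRNA 1 libraries (log2 difference 0.11, adjusted p = 0.129). Eif6, which keeps large subunits from joining too early, was at 146 ± 0.867, 145 ± 5.59 and 139.9 ± 10.7 CPM (adjusted p = 0.947 and 0.52). Eif5a, which is named an initiation factor but helps elongation, was at 766 ± 23.4, 738 ± 21.6 and 771 ± 34.9 CPM, and its paralogue Eif5a2 at 21.6 ± 1.66, 21.6 ± 0.821 and 19.8 ± 1.63 CPM. Per kilobase of exon Eif5a was the highest of all members, at 322 ± 9.84 CPM in control. Of 3 genes with such names outside these complexes, Eif1ad, Eif2a and Eif2d, none passed, with log2 fold changes from −0.12 to −0.053 for siRNA 1 and from −0.10 to 0.035 for siRNA 2.

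**Figure D4:**
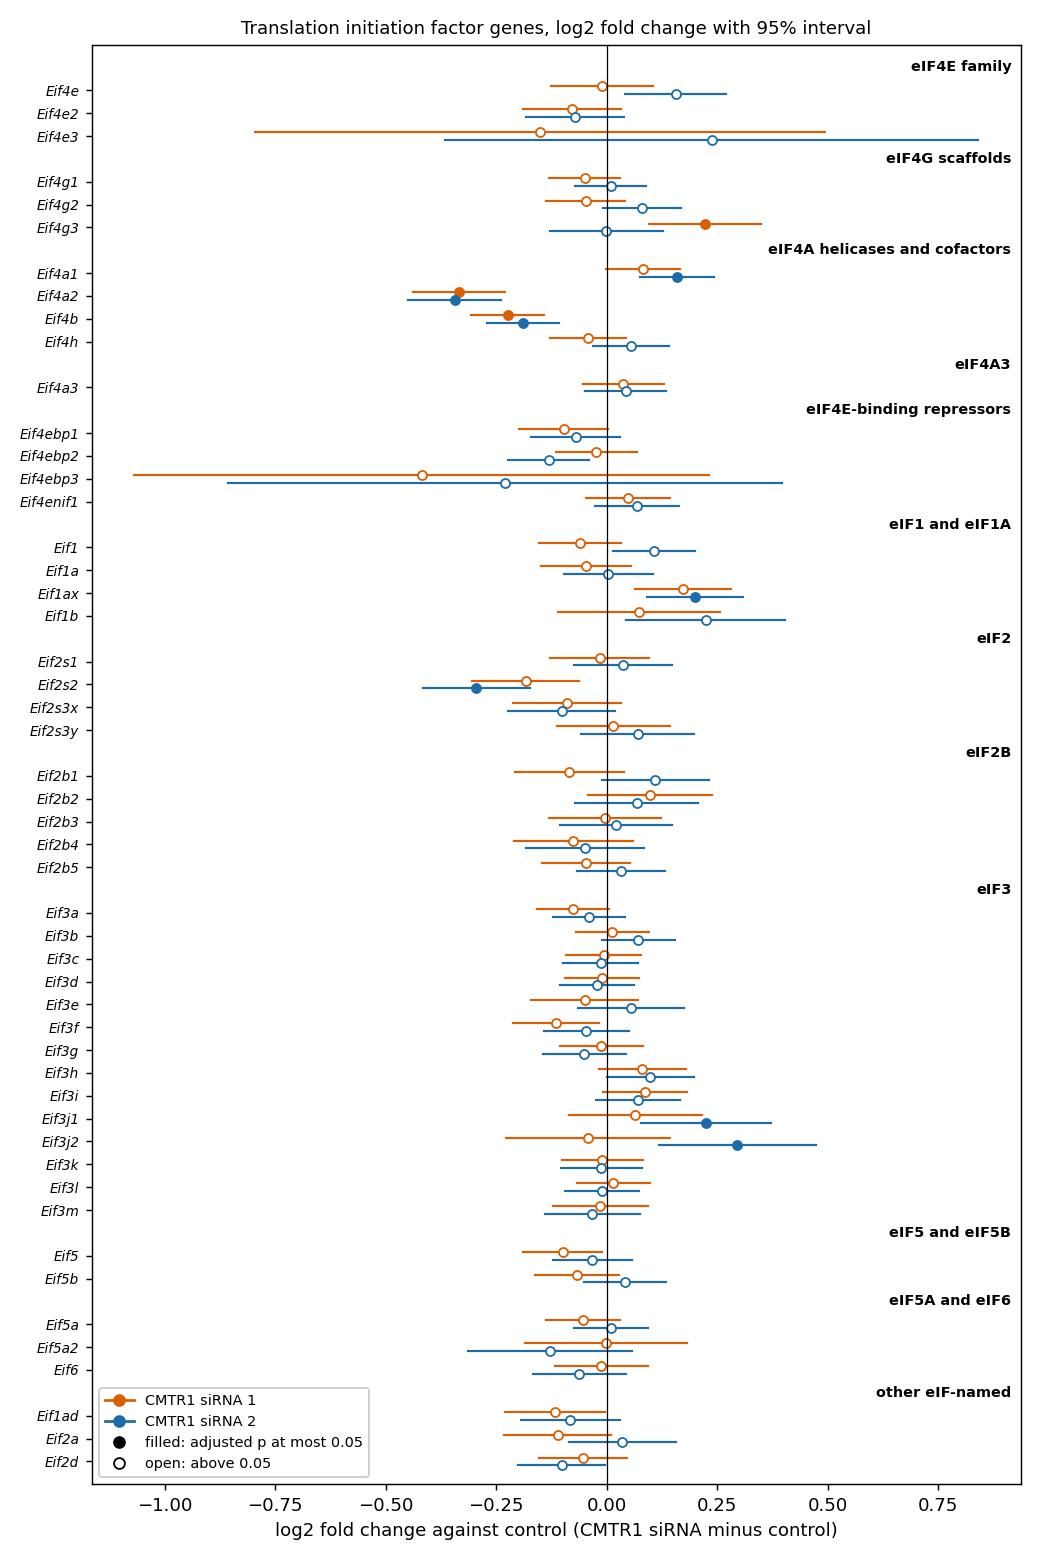
Log2 fold change against control (horizontal axis) of the 50 members tested, grouped by role, for siRNA 1 and siRNA 2; points are estimates, lines are 95% intervals, and filled points have an adjusted p of at most 0.05. Most intervals include 0, the eIF3 subunits other than the subunit j pair lie close to it, and Eif4e3 and Eif4ebp3, with at most 19 reads per library, have the widest intervals.

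Between the siRNAs themselves, 4 members passed (background 7.44%), 1 lower with siRNA 2 (Eif4g3; background 2.96%) and 3 higher (Eif1, Eif2b1 and Eif3j2; background 4.49%). The libraries of siRNA 1 and siRNA 2 did not overlap for 4 members, all higher with siRNA 2 (background 11.8%). The median log2 difference was 0.035 over the members and 0.002 over all genes tested, and 16 of 50 members were below 0. Over all genes, 475 were called lower and 721 higher. The count of 4 members became 1 without siRNA 1 replicate 2 (genes called 255 lower and 469 higher) or siRNA 2 replicate 1 (275 and 476). It became 2 without siRNA 1 replicate 1 (280 and 457) or siRNA 2 replicate 2 (392 and 559). Without replicate 3 of siRNA 1 it was 7 (538 and 705), as without replicate 3 of siRNA 2 (550 and 815). Markers also differed between the siRNAs: of the 8 ESC markers, Esrrb was lower with siRNA 2 (−0.21, adjusted p = 0.0312), and of the 9 tested markers of other cell types, Pax6 was lower (−0.68, 0.000312) and Col1a1 higher (0.76, 2.05e-05). Their part in the members' differences was not tested. Eif4a2 and Eif4b, lower with both siRNAs, differed between them by −0.012 (95% interval −0.11 to 0.087) and 0.035 (−0.041 to 0.11).

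Some members belong to the mRNAs with a terminal oligopyrimidine tract, a class that includes ribosomal proteins and depends on mTORC1. Of the 4 members taken from textbook knowledge, Eif4b passed as given above, and Eif3e, Eif3f and Eif3h did not, with log2 fold changes of −0.050, −0.12 and 0.081 for siRNA 1 and 0.055, −0.046 and 0.099 for siRNA 2. The backgrounds of genes called lower were 1.97% and 3.55%, and the class as a whole was not tested.

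Among the 20 listed genes that work with the initiation factors under other names, 2 passed with siRNA 1 and 3 with siRNA 2, all lower. Over all genes tested, 4.67% and 9.72% passed, 1.97% and 3.55% as lower. Impact, an inhibitor of the eIF2 kinase GCN2, had log2 fold changes of −0.18 and −0.19 (adjusted p = 0.0383 and 0.014). The poly(A)-binding proteins, which bind eIF4G and close the mRNA into a loop, were lower for Pabpc1 with siRNA 2 (−0.15, adjusted p = 0.0085) and for Pabpc4 with siRNA 1 (−0.18, adjusted p = 0.00717). Larp4, a poly(A)-associated protein, was lower with siRNA 2 (−0.14, adjusted p = 0.0453). The nuclear cap-binding complex genes Ncbp1 and Ncbp2 had log2 fold changes of 0.034 and 0.016 with siRNA 1 and 0.019 and 0.039 with siRNA 2, and did not pass. DESeq2 called 4 genes of the list with siRNA 1, adding Pabpc1 and Larp1, and 3 with siRNA 2. The median of the list was −0.004 with siRNA 1 and 0.034 with siRNA 2.

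Of 12 genes of elongation and termination, 3 passed as lower with siRNA 1 (background 1.97%). With siRNA 2, 3 passed as lower (background 3.55%) and 1 as higher (background 6.17%). The list was chosen with earlier results of these data known. Eef1b2, an exchange factor of elongation factor 1A, was lower with both, from 487, 501 and 475 CPM in control to 394, 411, 425 and 424 CPM with siRNA 1 and 410.1, 407, 401 and 419 CPM with siRNA 2. Its log2 fold changes were −0.24 (adjusted p = 0.000266) and −0.25 (5.55e-05), near in size to those of Eif4b. Eef2, which moves the ribosome along the mRNA, was also lower with both, at −0.16 (0.0191) and −0.13 (0.0312). Etf1, the release factor that reads stop codons, was lower with siRNA 1 at −0.32 (3.65e-05) and at 0.054 (0.559) with siRNA 2, and siRNA 2 minus siRNA 1 was 0.38 (3.03e-07). Eef1g was lower and Eef1e1 higher with siRNA 2, at −0.15 (0.0311) and 0.18 (0.0459). With siRNA 2, DESeq2 did not call Eef1e1 and called Eef1d in its place (−0.13 by edgeR, 0.0508), and it called the same genes as edgeR with siRNA 1. The median of the list was −0.084 with siRNA 1 and −0.014 with siRNA 2, beside −0.042 and 0.010 for the initiation factors.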

How the data were processed

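RNA of 11 E14 cell libraries was analysed. The authors checked reads with FastQC, trimmed them with Cutadapt, aligned them to GRCm38 with STAR, removed duplicates with Picard and, per their methods, counted reads per gene with featureCounts, with versions not given in the sources used here. The deposited values are whole-number counts per gene, with no normalization, and 10 of the 11 files end with summary lines in the layout of HTSeq-count, which were set aside. Duplicate removal lowers the counts of abundant transcripts, and reads shared by near-identical genes may be lost or split.

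Gene names and lengths came from GENCODE M21 (GRCm38), which matched 54809 of 54838 identifiers. Genes with more than 1 CPM in at least 4 libraries were tested with edgeR 4.0.16 in R 4.3.3 (quasi-likelihood test, total-count scaling, 1 fit of all 3 groups, Benjamini-Hochberg adjustment, threshold 0.05), and 95% intervals are the estimate ± 1.96 SE. Alternatives used TMM factors, edgeR's exact test, other filters, the groups of a contrast alone, a replicate block, DESeq2 1.42.0, and leaving out each library. The fits were tested on simulated data. Summaries and figures used Python 3.11.15, numpy 2.4.6, pandas 2.3.3 and matplotlib 3.10.9. Shared sequence was measured as the share of the 75-nt words of a gene's transcripts found in transcripts of other genes.

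Named members were those called in any comparison, all eIF4 genes, and in each other role the highest and lowest for the mean of both siRNAs. Others were named to complete a complex or because libraries did not overlap, after their values were seen. The members and lists were chosen with earlier results of these data known.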

Additional observations from a re-analysis of the deposited data

Results flagged for a closer look

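In 3 of 64 groups of 4 libraries, tested over 32 named members, 1 library stood apart from the rest of its group by its gap relative to the range, and chance gives about 1 in 20. Eif4b was at 584 CPM in siRNA 2 replicate 3, against 617 CPM in the next library. Eif1ad was at 76.0 CPM in siRNA 2 replicate 2, against 79.4 CPM in the next. Eif5a2 was at 20.3 CPM in siRNA 1 replicate 1, against 21.9 CPM in the next.

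The effects of the siRNAs differed by the test of their difference for 4 members. The log2 difference of siRNA 2 minus siRNA 1 was 0.167 for Eif1, 0.194 for Eif2b1 and 0.338 for Eif3j2, which were higher with siRNA 2, and −0.224 for Eif4g3, which was higher with siRNA 1. Library by library, Eif1 and Eif3j2 were separate between the siRNAs, while Eif2b1 and Eif4g3 overlapped.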

How the results depend on the processing

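Eif4a2 and Eif4b were called with either siRNA, and Eif2s2 with siRNA 2, under every alternative. No named member reversed while called. DESeq2 called 450, 874, 674 and 660 genes for siRNA 1, siRNA 2, their difference and their mean, against 751, 1562, 1196 and 1110 with edgeR, and 4 and 2 members for siRNA 2 and the mean. For the difference between the siRNAs, edgeR's exact test called 2 eIF4 genes and no filter on low counts 3, against 1. Leaving out 1 library gave 355 to 852, 807 to 1658, 724 to 1365 and 499 to 1223 genes, 2 to 4, 3 to 9, 1 to 7 and 2 to 5 members, and 2 to 3, 2 to 4, 0 to 3 and 2 to 3 eIF4 genes, in the same order. Counts of genes fell by over 1.5 times without control replicate 2 or 3 (siRNA 1, siRNA 2 and mean), siRNA 1 replicate 2 (siRNA 1 and difference), siRNA 2 replicate 1 (siRNA 2 and difference) or siRNA 1 replicate 1 (difference). The members' median log2 fold change ran over all settings from −0.066 to −0.009, −0.019 to 0.032, 0.013 to 0.055 and −0.037 to 0.003, so its sign held for siRNA 1 and for the difference only. Over all genes tested, the replicate numbers showed no clear pairing. Deviations of same-numbered libraries correlated at 0.0107 on average (−0.078 to 0.0835, 10 pairs). Those of others correlated at −0.00358 (−0.104 to 0.101, 30 pairs). Deviations were taken from group means, which ties these averages to each other, so the latter is no independent reference. The correlations run over all genes and cannot decide pairing for single members. A fit with these numbers as a block called 840, 1486, 1242 and 1144 genes and 4, 6, 4 and 4 members, adding Eif2s2 for siRNA 1 (adjusted p = 0.00666) and losing Eif3j1 for siRNA 2 (0.121) and Eif4a1 for the mean (0.0991). At 5 to 19 reads per library, Eif4e3 and Eif4ebp3 were limited by depth.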

Other observations

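Of 15 genes of the mTORC1 pathway, which phosphorylates the 4E-binding proteins, 2 passed with siRNA 1 (background 4.67%) and 3 with siRNA 2 (background 9.72%). Akt1s1, which encodes the mTORC1 inhibitor PRAS40, was lower with both, at log2 fold changes of −0.24 and −0.37 (edgeR adjusted p = 0.0277 and 0.000326). Deptor, another inhibitor of mTOR, was lower with siRNA 2 at −0.24 (edgeR adjusted p = 0.0139). Tsc2, which restrains mTORC1 through Rheb, was higher with siRNA 1 at 0.17 (edgeR adjusted p = 0.0225), and Sesn3, a sestrin, was higher with siRNA 2 at 0.22 (edgeR adjusted p = 0.0271). Mtor itself was at 0.032 and −0.058 (edgeR adjusted p = 0.823 and 0.542). DESeq2 called 0 genes of the list with siRNA 1 and 2 with siRNA 2, Akt1s1 and Deptor. The median of the list was 0.017 with siRNA 1 and −0.018 with siRNA 2.

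Of 8 genes for the kinases and phosphatase subunits that act on eIF2 and the kinases that act on eIF4E, edgeR called 0 against control with either siRNA, and 2 had an unadjusted p under 0.05 in each comparison. The backgrounds of called genes were 4.67% with siRNA 1, 9.72% with siRNA 2 and 7.44% between the siRNAs. DESeq2 called 1 with siRNA 1, Ppp1r15b, and 0 with siRNA 2. Between the siRNAs 1 passed, Ppp1r15b, a subunit that directs a phosphatase to eIF2, which was higher with siRNA 2 by 0.15 (edgeR adjusted p = 0.0262).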
